A study of Macaca mulatta with 12 samples.

Results

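RELN and ADARB2 inhibitory nuclei are nuclei from the amygdala of rhesus macaques (Macaca mulatta) that carry transcripts of GABA synthesis together with those of the secreted protein reelin and of the RNA-binding protein ADARB2. They were selected on their unique molecular identifier (UMI) counts, where 1 UMI stands for 1 captured transcript. A nucleus needed at least 3 UMIs of GAD1 and GAD2 together, at least 5 of ADARB2 and at least 5 of RELN. It could have at most 1 UMI of SLC17A7, at most 1 of SST and fewer than 8 of CNR1, and none of LHX6, CRH or HTR3A. The rule found 369 nuclei, which are 1.40% of all 26400 nuclei and 11.3% of the 3272 inhibitory nuclei, those with at least 3 UMIs of GAD1 and GAD2 (exact 95% binomial interval 10.2 to 12.4%).

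The study profiled nuclei of frozen, surgically removed amygdala tissue by single-nucleus RNA sequencing, with the aim of sorting primate amygdala cells into molecular types. All 12 labelled samples belong to 1 group, and the labels give no genotype, age or treatment. The nuclei carry 3 barcode suffixes, called barcode sets here, and no label ties a set to a sample or an animal, so the pool counted as 1 sample. No difference below has a replicate error or a test. Intervals are exact, at the 95% level, and include nothing but the error of counting.

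GABAergic neurons make GABA with the enzymes encoded by GAD1 and GAD2 and damp the activity of their targets. In the mouse, interneurons that express Adarb2 come largely from the caudal ganglionic eminence of the embryonic brain, while those that express Lhx6 come from the medial one, and reelin marks several types of both origins, among them the neurogliaform cells. Reelin binds the receptors VLDLR and LRP8 and acts through the adaptor DAB1, and in the adult brain it acts on synapses.

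The 369 nuclei numbered 136, 134 and 99 in the 3 barcode sets, or 11.6, 12.1 and 9.98% of each set's inhibitory nuclei. The 3 intervals of these shares overlap, from 8.19 to 14.2% in all. The members held 2226717 UMIs in all, with a median of 5341 per nucleus (1254 to 15724), against 20434702 UMIs and a median of 6511 in the 2903 other inhibitory nuclei. The barcode sets shared 68 barcodes, each found in 2 of them, and 1 member had such a barcode. Scrublet scores marked 31 members as presumed doublets (8.40%), against 247 of the other inhibitory nuclei (8.51%).

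Besides the other inhibitory nuclei as a whole, 2 populations close to the members served for comparison. ADARB2 nuclei without RELN met every criterion except that they had no RELN UMI. They numbered 361, with a median of 5075 UMIs. CNR1-high ADARB2 nuclei had at least 8 UMIs of CNR1, the gene of the cannabinoid receptor, and at least 5 of ADARB2, with the same limits on SLC17A7, SST and LHX6 but none on RELN, CRH or HTR3A. They numbered 492, with a median of 7875 UMIs. Both populations are among the 2903 other inhibitory nuclei.

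The genes of the rule are given as a description, since they chose the nuclei. RELN had a median of 31 UMIs in members (5 to 124), and its summed level, as UMIs scaled to a sum of 1000000 per population (CPM), was 5735 CPM in members, against 2939 CPM in CNR1-high ADARB2 nuclei and 917 CPM in other inhibitory nuclei. ADARB2 stood at 9509 CPM in members, at 8199 CPM in ADARB2 nuclei without RELN and at 14974 CPM in CNR1-high ADARB2 nuclei. GAD2 stood at 686 CPM in members, against 448 CPM in other inhibitory nuclei, and GAD1 at 434 against 403 CPM. RELN at 5 UMIs or more was not particular to the members, since 978 inhibitory nuclei reached it. Of the 609 that were not members, 290 had too much CNR1, 219 too little ADARB2 and 183 a UMI of LHX6, and a nucleus can fail several criteria.

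FREM2, which encodes an extracellular matrix protein and was proposed as the third marker of these nuclei, did not mark them. It stood at 68.5, 68.3 and 150 CPM in members of the 3 barcode sets, against 126, 150 and 149 CPM in other inhibitory nuclei. Members were thus below the other inhibitory nuclei in 2 sets and level with them in the third. A FREM2 UMI was found in 63 of 369 members (17.1%), against 362 of 492 CNR1-high ADARB2 nuclei (73.6%) and 745 of 2903 other inhibitory nuclei (25.7%). In excitatory nuclei, which should lack most inhibitory genes, the share was 9.21% at a median of 11335.5 UMIs. Thinned to 3000 UMIs per nucleus, the shares were 13.0% in members, 59.7% in CNR1-high ADARB2 nuclei, 18.1% in other inhibitory nuclei and 3.25% in excitatory nuclei. The nuclei are therefore called by RELN and ADARB2 alone.

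Against the other inhibitory nuclei, the members had more NDNF, EGFR, FRAS1 and CHSY3 and less TAC1, CUX2 and SATB1. Here and below, higher and lower mean at least a 2-fold difference in CPM with the same direction in all 3 barcode sets, among genes with enough counts to be compared. Of 11278 genes 167 were higher in members (1.48%) and 417 were lower (3.7%), and the median log2 ratio over all of them was -0.01. The other inhibitory nuclei held more UMIs, so a gene reached the count minimum at a lower CPM there. The numbers of higher and lower genes are therefore not on equal terms. The 15 highest with a symbol were MYH11, BMP2, GALNT15, NDNF, RERG, COL21A1, FAT1, PTPN14, CALCRL, CHSY3, FRAS1, EGFR, SUSD5, BCAM and ENPP2. Of the 69 list genes that were higher or lower here, 27 came under 2-fold when 1 of the 7 sub-clusters of members, described below, was left out, and such losses are given for the genes named.

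NDNF, a secreted protein that marks neurogliaform cells of the upper mouse cortex, stood at 135, 137 and 157 CPM in members of the 3 barcode sets, against 20.1, 16.2 and 24.2 CPM in other inhibitory nuclei. The sets of members all lay above those of the other nuclei, and the pooled log2 ratio was 2.81 (2.60 to 3.03). A NDNF UMI was found in 47.7% of members, 8.20% of other inhibitory nuclei and 0.432% of excitatory nuclei. After thinning to 3000 UMIs the shares were 31.4, 4.48 and 0.0722% in the same order.

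EGFR, the receptor of epidermal growth factor, stood at 669, 718 and 640 CPM in members, against 140, 155 and 152 CPM in other inhibitory nuclei. All 3 sets of members lay above all 3 of the others, with a pooled log2 ratio of 2.19 (2.10 to 2.28). EGFR was detected in 83.2% of members, 51.2% of other inhibitory nuclei and 50.5% of excitatory nuclei, and after thinning in 72.8, 31.5 and 16.8%. FRAS1, a matrix protein of basement membranes and a partner of FREM1 and FREM2, stood at 635, 708 and 663 CPM in members, against 136, 135 and 155 CPM in other inhibitory nuclei (log2 ratio 2.24, 2.15 to 2.33). CHSY3, an enzyme that builds chondroitin sulfate chains, stood at 1516, 1802 and 1531 CPM in members, against 323, 335 and 330 CPM in other inhibitory nuclei (log2 ratio 2.30, 2.24 to 2.36). For both genes the barcode sets of members and others did not overlap.

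Others of the 15 included low genes. BMP2, a bone morphogenetic protein, had 54 UMIs in members (24.3 CPM) against 3.13 CPM in other inhibitory nuclei. MYH11, a smooth muscle myosin, had 52 UMIs (23.4 CPM) against 2.59 CPM. The 3 mural markers PDGFRB, RGS5 and NOTCH3 summed to 5.39 CPM in members and 9.20 CPM in other inhibitory nuclei. FAT1, an atypical cadherin, stood at 200.3 against 37.6 CPM, and PTPN14, a tyrosine phosphatase, at 132 against 25.5 CPM. CALCRL, a subunit of the receptor for calcitonin gene-related peptide, stood at 30.1 against 5.97 CPM, but that rested on 1 sub-cluster of the members, described below.

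**Figure D1:**
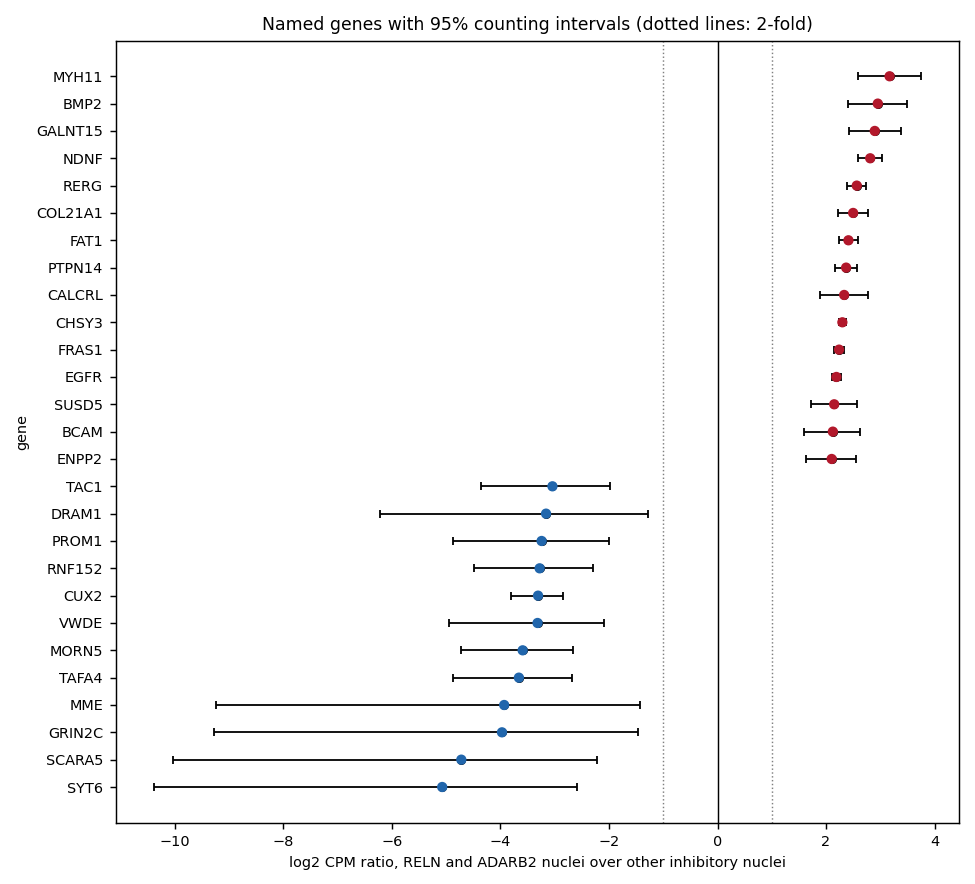
Log2 ratio of CPM in RELN and ADARB2 nuclei over other inhibitory nuclei (horizontal axis) for the 15 genes with the highest and the 12 with the lowest ratio among those at least 2-fold apart in all 3 barcode sets. Points are pooled values and whiskers 95% counting intervals, which are widest where members held only 1 or 2 UMIs (SYT6, SCARA5, GRIN2C, MME and DRAM1).

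Of the 12 lowest genes, CUX2 had 39 UMIs in members and the others had 1 to 9. SYT6, a synaptotagmin, had 1 UMI in members, or 0.449 CPM, against 15.1 CPM in other inhibitory nuclei (log2 ratio -5.07, -10.4 to -2.58). SCARA5, GRIN2C and MME also had 1 UMI each and DRAM1 had 2. TAC1, the precursor of substance P, stood at 4.72, 1.24 and 3.48 CPM in members of the 3 sets, against 27.8, 24.5 and 25.3 CPM in other inhibitory nuclei. CUX2, a homeobox transcription factor, stood at 23.6, 12.4 and 15.7 CPM in members, against 180.3, 179 and 159.5 CPM in other inhibitory nuclei. No barcode set of members reached the lowest set of the others for either gene. TAFA4, MORN5, VWDE, RNF152 and PROM1 made up the 12, with log2 ratios from -3.66 to -3.24.

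Among the genes of the reelin pathway, the receptor LRP8 was lower in members, at 46.0, 46.0 and 74.8 CPM in the 3 sets, against 143, 134 and 141 CPM in other inhibitory nuclei (log2 ratio -1.38). DAB1, the adaptor that carries the signal into the cell, stood at 1614 CPM in members and 1005 CPM in other inhibitory nuclei, which is under 2-fold. VLDLR, the other receptor, stood at 21.6 and 16.6 CPM. Of 19 pathway genes compared, none was higher and 2 were lower, LRP8 and the integrin ITGA3 (5.39 against 12.7 CPM). Over all genes 1.48% were higher and 3.7% lower, so the count says little about a list this short. The median log2 ratio of the list was -0.10. Without the sub-cluster highest in FRAS1, ITGA3 was under 2-fold apart, at 6.79 CPM in members. Of 8 RNA editing genes none was higher or lower, which is near those shares for so few genes. ADARB1, an active editing enzyme, stood at 63.3 CPM in members and 57.6 CPM in other inhibitory nuclei, and ADAR at 52.5 and 52.8 CPM.

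The row listed as ENSMMUG00000031298, which has no symbol, varied with RELN. It stood at 496 CPM in members, at 283.6 CPM in CNR1-high ADARB2 nuclei and at 85.7 CPM in all other inhibitory nuclei, while ADARB2 nuclei without RELN held 3 UMIs of it in all. Its Pearson correlation with RELN was 0.81 over the 3272 inhibitory nuclei and 0.63 over the 369 members, which share library and depth. Whether its reads come from the RELN transcript was not tested.

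Of 16 peptide and related secreted genes compared, 1 was higher in members and 7 were lower, with a median log2 ratio of -0.52. Over all genes, 1.48% were higher and 3.7% lower. PNOC, the precursor of nociceptin, was the higher one, at 39.0, 32.3 and 15.7 CPM in members of the 3 sets, against 12.8, 13.1 and 12.4 CPM in other inhibitory nuclei. Without the sub-cluster highest in FRAS1 it came under 2-fold, at 25.5 CPM in members against 12.8 CPM. The lower ones were TAC1, VIP, CCK, NPY, PENK, PTHLH and CBLN2. NPY, a peptide of many reelin interneurons of mouse cortex, stood at 5.39 CPM in members and 14.7 CPM in other inhibitory nuclei. CCK, cholecystokinin, stood at 35.0 against 72.9 CPM. The call for CCK was lost when the sub-cluster highest in COL5A2 or the one highest in HTR2C was left out (37.6 and 40.8 CPM in members). Of 18 peptide and hormone receptor genes, none was higher and 5 were lower: the opioid receptors OPRM1 and OPRD1, the growth hormone receptor GHR, the natriuretic peptide receptor NPR3 and the VIP receptor VIPR2. OPRD1 stood at 22.5 CPM in members and 65.5 CPM in other inhibitory nuclei, and OPRM1 at 14.4 against 36.8 CPM. The rule limited SST, LHX6, CNR1, CRH and HTR3A, so the selection may bear on these counts, which was not tested. Against ADARB2 nuclei without RELN, which met the same limits, 1 of 10 peptide genes was higher and 2 were lower. The median log2 ratio was -0.002 there. None of 8 peptide and hormone receptor genes was higher or lower in that comparison, beside 1.66% higher and 2.15% lower among all genes.

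Calls among receptors of fast and modulatory transmitters were for single genes. They are set here beside the 1.48% higher and 3.7% lower among all genes. Among 23 glutamate receptor genes, GRIN3A was higher, and GRIA1, GRIK3 and GRIN2C were among the lower ones. GRIA1, an AMPA receptor subunit, stood at 1366, 1132 and 1221 CPM in members, against 3332, 3180.0 and 3173 CPM in other inhibitory nuclei, and the sets did not overlap. GRIN3A, an NMDA receptor subunit, stood at 698 against 293 CPM, and at 543 CPM without the sub-cluster highest in PAPPA2, which ends the call. GRIK1, a kainate receptor subunit, stood at 3540 against 2332 CPM, which is under 2-fold. Of 13 GABA receptor genes none was higher or lower, which is near those shares for so few genes. Among 16 monoamine and acetylcholine receptor genes, CHRM3 and HTR2C were higher and CHRM2, DRD2, DRD3, HTR1F and HTR4 were lower. CHRM2, a muscarinic receptor, stood at 59.7 CPM in members and 223 CPM in other inhibitory nuclei, whereas CHRM3, another one, stood at 2526 against 1236 CPM. The calls of CHRM3 and KCNQ5 were close to the 2-fold limit and were lost when the sub-cluster highest in FRAS1 was left out, and that of HTR4 without the one highest in PAPPA2. Of 38 voltage-gated channel genes, KCNQ5 was higher and KCNH8 and SCN9A were lower, which is near the shares over all genes. KCNH8 was not lower without the sub-cluster highest in FRAS1 (36.2 against 67.8 CPM). SCN9A, a sodium channel, stood at 40.9 CPM in members and 129 CPM in other inhibitory nuclei.

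Of 4 markers of the medial ganglionic eminence compared, none was higher in members and 2 were lower, the transcription factors SATB1, at 17.1 against 127 CPM, and SOX6, at 44.9 against 102 CPM. The rule required no LHX6, which 1174 of the 2903 other inhibitory nuclei carried, so the selection bears on this result. Against ADARB2 nuclei without RELN, SATB1 was lower and SOX6 neither higher nor lower. Against CNR1-high ADARB2 nuclei, SATB1 was lower and SOX6 higher. Without the sub-cluster highest in FRAS1, the SATB1 call against ADARB2 nuclei without RELN was lost (20.4 against 36.6 CPM). That call was also lost without the one highest in COL5A2 or the one highest in HTR2C (18.5 and 21.3 CPM in members). The higher SOX6 call was lost without the one highest in SLC1A3 (35.5 against 21.0 CPM). The 7 markers of the medial list present in the file summed to 11857 CPM in members and 10478 CPM in other inhibitory nuclei. Of 7 markers of the caudal eminence, VIP and CCK were lower and none was higher. Over all genes, 1.48% were higher and 3.7% lower, and the lists of this paragraph are short beside those shares. PROX1, a transcription factor of that origin, stood at 65.1 CPM in members and 53.3 CPM in other inhibitory nuclei, and NR2F2 at 43.1 against 21.9 CPM, both under 2-fold. Of 8 striatal-like and intercalated markers compared, 1 was higher and 2 were lower, DRD2 and PENK. The higher one was BCL11B, a transcription factor of striatal projection neurons and of some interneurons, at 240, 270 and 285 CPM in members, against 76.8, 76.9 and 77.4 CPM in other inhibitory nuclei. BCL11B was neither higher nor lower against ADARB2 nuclei without RELN, and higher against CNR1-high ADARB2 nuclei. Against other inhibitory nuclei NR4A3, an immediate early gene, was higher at 39.5 against 12.6 CPM. The other 4 of 5 such genes compared there were neither higher nor lower. Among 24 growth factor and kinase genes, ALK, BMP6 and EGFR were among the higher ones and MET was lower. The ALK call rested at 2.03-fold and was lost without any 1 of 3 sub-clusters. BMP6 stood at 387, 480 and 518 CPM in members, against 201, 193 and 169 CPM in other inhibitory nuclei.

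Genes of cell contact are set here beside the 1.48% higher and 3.7% lower among all genes. Of 21 neurexins and partners none was higher and 5 were lower, among them NRXN3, a presynaptic adhesion protein, at 3941 CPM in members and 8470 CPM in other inhibitory nuclei, and LRRTM4, a postsynaptic partner of neurexins, at 2095 against 4520 CPM. Both calls lie near 2-fold and were lost without the sub-cluster highest in FRAS1 or without the one highest in PAPPA2. Of 32 axon guidance genes PLXNA4, SEMA6D and SLIT2 were lower, the last not without the sub-cluster highest in FRAS1 (122 against 236 CPM). Of 19 cadherins 5 were lower and CDH6 was higher, at 62.4 against 21.4 CPM. Of the 5 lower ones, 4 came under 2-fold without 1 sub-cluster: CDH11, CDH18 and PCDH19 without the one highest in FRAS1, at 77.0, 81.5 and 46.4 CPM in members against 138, 152 and 91.6 CPM, and CDH20 without the one highest in HTR2C, at 424 against 822 CPM. Of 27 proteoglycans and matrix genes COL14A1, COL21A1, EGFLAM and GPC3 were higher and COL12A1, COL19A1, GPC6 and THSD7A were lower. Without the sub-cluster highest in FRAS1, COL14A1 stood at 30.6 against 16.5 CPM and GPC6 at 448 against 822 CPM, and without the one highest in HTR2C EGFLAM stood at 5.74 against 5.53 CPM, all under 2-fold. Of 7 genes of the FRAS1 and FREM matrix complex FRAS1 and FREM1 were higher and ITGA8, an integrin of that complex, was lower. FREM1 stood at 304 CPM in members and 140.2 CPM in other inhibitory nuclei, and at 234 CPM without the sub-cluster highest in FRAS1, which ends the call.

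**Figure D2:**
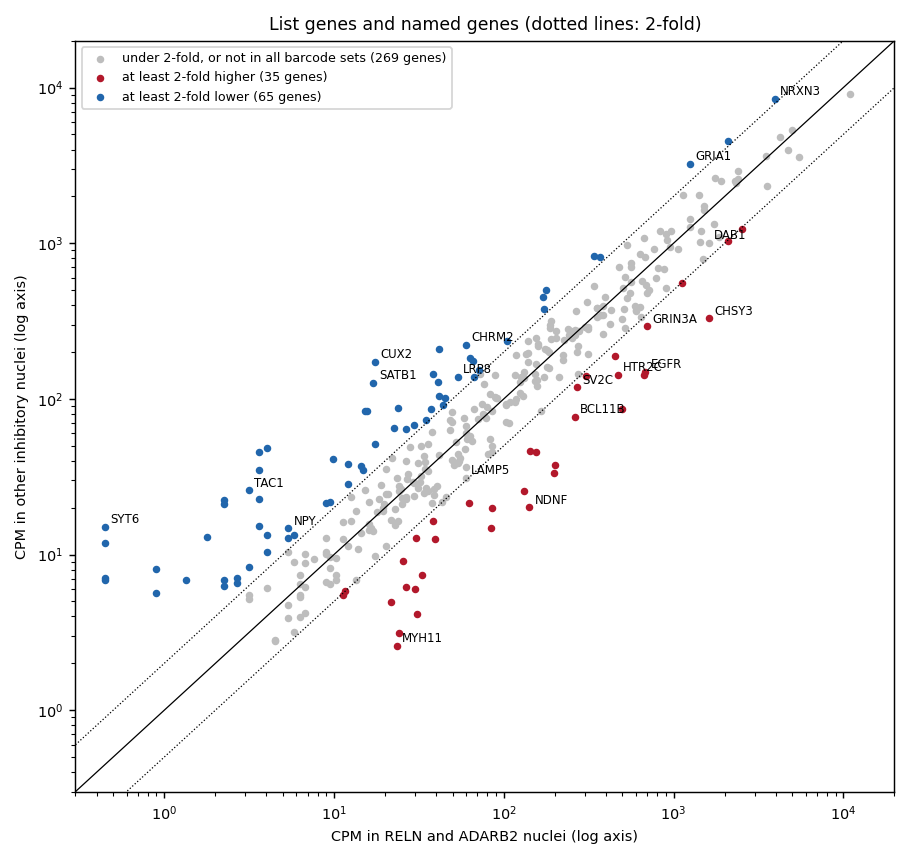
CPM in RELN and ADARB2 nuclei (horizontal log axis) against CPM in other inhibitory nuclei (vertical log axis) for 369 genes, the list genes and named genes with UMIs on both sides and enough counts to be compared. Red points (35 genes) were at least 2-fold higher and blue points (65 genes) at least 2-fold lower in members in all 3 barcode sets, and dotted lines mark 2-fold.

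Markers of other cells were compared as whole lists. The 5 astrocyte markers summed to 994, 712 and 484 CPM in members of the 3 sets, against 491, 489 and 456 CPM in other inhibitory nuclei, with none 2-fold apart. The 5 oligodendrocyte markers summed to 106 CPM in members and 103 CPM in other inhibitory nuclei, and the 6 excitatory markers to 36.8 and 38.8 CPM. Of the 5 Cajal-Retzius markers present, EBF3 was at 0 in members, and the list summed to 22.01 against 19.97 CPM. Cajal-Retzius cells are the reelin source of the developing cortex. With presumed doublets left out on both sides, 182 genes were higher and 474 lower in members, and without the sub-cluster highest in SLC1A3 188 were higher and 520 lower.

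Against ADARB2 nuclei without RELN, the population that differed from the members by RELN alone in the rule, the members again had more NDNF, FRAS1, BMP6 and EGFR. Of 6620 genes compared 110 were higher (1.66%) and 142 lower (2.15%), and without the sub-cluster highest in SLC1A3 235 were lower. Of the 46 list genes among them, 18 came under 2-fold when 1 sub-cluster was left out. The 6 highest with a symbol were BMP2, MYH11, MKX, CMTM8, NDNF and HTR2C, the last of which stood at 70.1 against 81.9 CPM without 1 sub-cluster, described below. NDNF stood at 135, 137 and 157 CPM in members, against 12.04, 19.2 and 22.4 CPM in ADARB2 nuclei without RELN. BMP2 had 54 UMIs in members and 2 in ADARB2 nuclei without RELN, a log2 ratio of 4.58 (2.65 to 7.66). FRAS1 stood at 669 against 166 CPM, EGFR at 679 against 258 CPM and BMP6 at 454 against 117 CPM. ROBO2, an axon guidance receptor, stood at 1491 against 460.3 CPM, and CHRM3 at 2526 against 836 CPM.

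The 6 lowest in that comparison were VWDE, GALNT14, TRPM8, ADAMTS17, ARHGAP18 and HTR1F. GALNT14, an enzyme that starts O-linked sugar chains, stood at 37.8, 52.2 and 31.3 CPM in members, against 394, 274 and 363 CPM in ADARB2 nuclei without RELN. HTR1F, a serotonin receptor, stood at 14.2, 21.1 and 17.4 CPM against 97.8, 88.7 and 91.2 CPM. For both genes the sets of the populations did not overlap. PROX1 was lower in members here, at 65.1 against 178.5 CPM, as were the caudal markers NPAS1 (48.0 against 97.2 CPM) and CCK (35.0 against 70.2 CPM). The last 2 lay at the 2-fold limit: NPAS1 came under it without any 1 of 5 sub-clusters, at 50.3 to 57.2 CPM in members, and CCK without any 1 of 6, at 35.1 to 40.8 CPM. THSD7A, a membrane protein with thrombospondin repeats, stood at 171 CPM in members and 774 CPM in ADARB2 nuclei without RELN. Of 13 reelin pathway genes and of 20 glutamate receptor genes compared, none was higher or lower, and LRP8 stood at 53.4 against 95.1 CPM. Over all genes 1.66% were higher and 2.15% lower, so lists this short would hold few calls. LAMP5, a membrane protein that marks neurogliaform cells, stood at 59.7 against 43.2 CPM, under 2-fold.

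Nuclei near the threshold were few, and genes varied with the RELN count within and below the members in different ways. Among nuclei that met every other criterion, 15 members had 5 or 6 RELN UMIs and 20 nuclei just outside had 3 or 4. NDNF stood at 40.4 CPM in the 15 and 52.0 CPM in the 20, from 3 and 6 UMIs. FRAS1 stood at 216 and 234 CPM, from 16 and 27 UMIs, so these levels are loose. By RELN count, NDNF stood at 17.8 CPM with no RELN UMI, 42.5 CPM with 1 or 2, 72.7 CPM with 7 to 14, 133 CPM with 15 to 29, 147 CPM with 30 to 49 and 187 CPM with 50 or more. FRAS1 showed no steady climb, at 166 CPM with no RELN UMI, 132 CPM with 1 or 2, 239 CPM with 7 to 14, 794 CPM with 15 to 29, 775 CPM with 30 to 49 and 731 CPM with 50 or more. EGFR stood at 258 CPM with no RELN UMI, 775 CPM with 30 to 49 and 657 CPM with 50 or more. LAMP5 was uneven, at 95.3 CPM with 3 or 4 RELN UMIs and 47.6 CPM with 50 or more. THSD7A ran the other way, at 774 CPM with no RELN UMI and 84.5 CPM with 50 or more. Depth was not flat over these classes, with a median of 7147 UMIs in the last and 4452 UMIs in the class of 15 to 29. On the CNR1 side, 18 members had 6 or 7 CNR1 UMIs and 18 nuclei just outside had 8 or 9. NDNF stood there at 144 and 136 CPM (21 and 17 UMIs) and FREM2 at 357 and 232 CPM (52 and 29 UMIs).

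**Figure D3:**
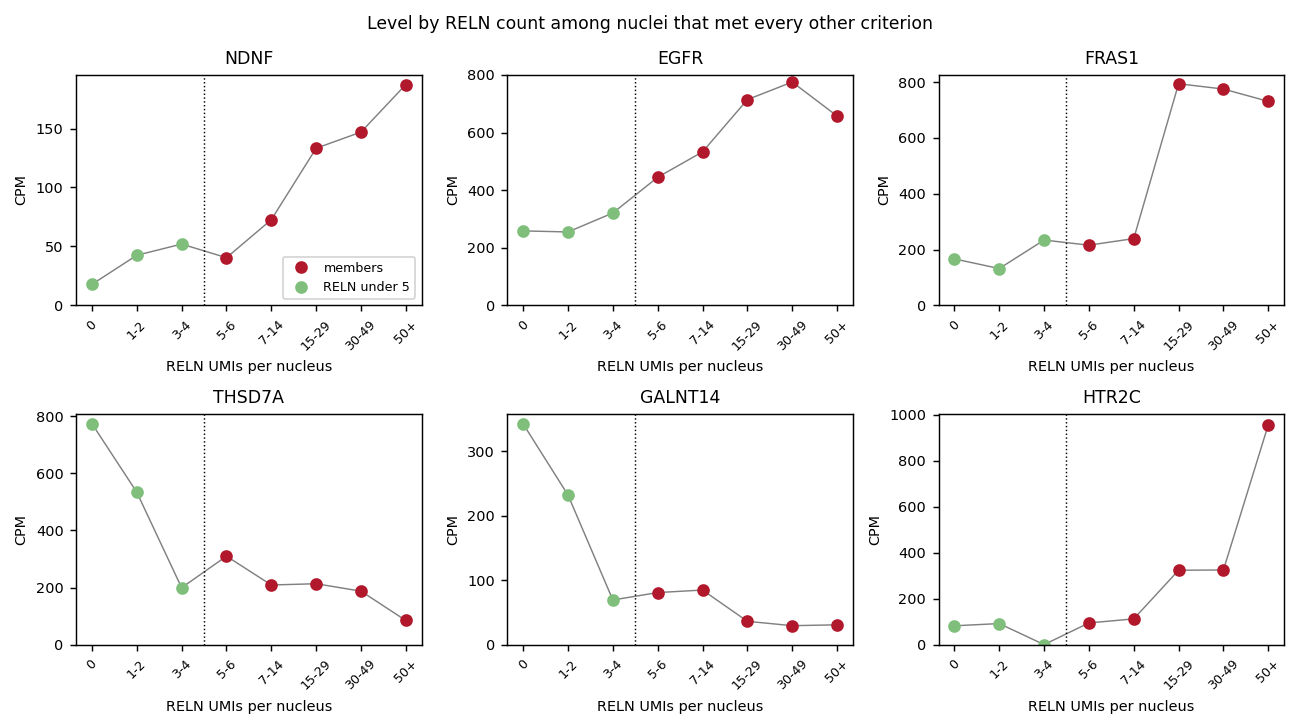
CPM of 6 genes (vertical axis, from 0) in nuclei grouped by their RELN UMIs (horizontal axis), among nuclei that met every other criterion. Red points are members, green points nuclei under the threshold of 5 (dotted line). NDNF, EGFR and FRAS1 were higher and THSD7A and GALNT14 lower with 15 RELN UMIs or more than with none, though not step by step, and HTR2C was highest, at 957 CPM, in the class with 50 UMIs or more.

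Against CNR1-high ADARB2 nuclei, the members had more of the markers of neurogliaform and LAMP5 interneurons. Of 8199 genes compared 262 were higher (3.2%) and 282 lower (3.44%). Of the 82 list genes among them, 27 came under 2-fold when 1 sub-cluster was left out. All 5 genes of that marker list that could be compared were higher in members (LAMP5, NDNF, SV2C, NOS1 and EYA4), with a median log2 ratio of 4.27 beside 0.01 over all genes. LAMP5 stood at 61.4, 58.4 and 59.1 CPM in members, against 0, 2.25 and 2.27 CPM in CNR1-high ADARB2 nuclei (log2 ratio 5.32, 4.16 to 6.79). NOS1, the neuronal nitric oxide synthase, stood at 138, 145 and 134 CPM against 7.42, 5.26 and 3.02 CPM. SV2C, a synaptic vesicle protein, stood at 263, 263 and 287 CPM against 10.4, 17.3 and 14.3 CPM. In all 3 genes every set of members lay above every set of CNR1-high ADARB2 nuclei. The EYA4 call rested on the sub-cluster highest in PAPPA2, without which it stood at 88.2 against 58.2 CPM. LAMP5 was detected in 25.7% of members, 1.02% of CNR1-high ADARB2 nuclei and 7.12% of excitatory nuclei, and after thinning in 17.6, 0.204 and 1.95%.

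The same marker list was mixed against all other inhibitory nuclei. Of 6 genes compared there, NDNF and SV2C were higher (SV2C 269 against 119 CPM) and NPY was lower. Over all genes 1.48% were higher and 3.7% lower, and the median log2 ratio of the list was 0.32. LAMP5 stood at 59.7 against 31.1 CPM, NOS1 at 140 against 172 CPM and EYA4 at 160 against 220 CPM. The SV2C call was lost without the sub-cluster highest in FRAS1, where members stood at 234 CPM. Against ADARB2 nuclei without RELN, 2 of 5 genes compared were higher, NDNF and SV2C, and none was lower (median log2 ratio 0.72). That SV2C call was lost in the same way, at 234 against 129 CPM.

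Other transmitter genes separated the members from CNR1-high ADARB2 nuclei in both directions. NXPH1, a neurexin ligand, stood at 1133 CPM in members and 120 CPM in CNR1-high ADARB2 nuclei, GRIN3A at 698 against 74.7 CPM and the AMPA receptor subunit GRIA4 at 1725 against 185 CPM. GALNT15 and KIRREL1 were, with LAMP5, NOS1 and SV2C, among the 6 highest. The 6 lowest were SYT6, SLC17A8, TNS1, DRAM1, MCTP2 and ELL2. SLC17A8, the vesicular glutamate transporter VGLUT3 of some CCK interneurons, had 0 UMIs in members and 163 in CNR1-high ADARB2 nuclei. Set against a floor of 3 UMIs over the members, it was at least 30.2-fold lower. CCK, VIP, NPAS1 and NPAS3 of the caudal markers were lower in members, and PROX1 was higher (65.1 against 24.5 CPM). FREM2 was lower, at 89.4 against 529 CPM, and IGF1 was lower as well. Of 13 GABA receptor genes, GABBR2, GABRA4 and GABRD were higher and GABRG1 was lower. Over all genes of this comparison, 3.2% were higher and 3.44% lower. Without 1 sub-cluster NPAS3 and IGF1 came under 2-fold, NPAS3 at 1363 against 2674 CPM without the one highest in PAPPA2 and IGF1 at 195 against 385 CPM without the one highest in COL5A2.

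**Figure D4:**
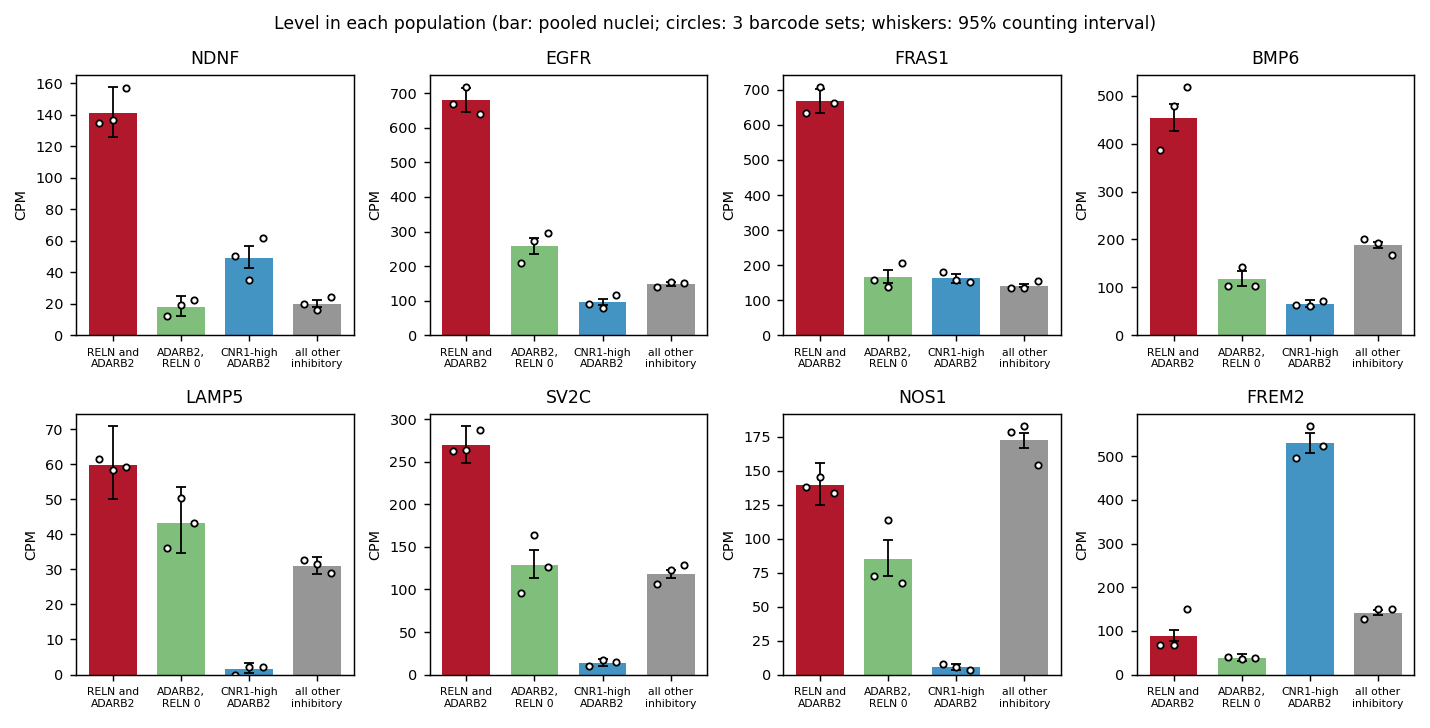
CPM (vertical axes, from 0) of 8 genes in RELN and ADARB2 nuclei (red), ADARB2 nuclei without RELN (green), CNR1-high ADARB2 nuclei (blue) and all other inhibitory nuclei (grey, which include green and blue). Bars are pooled values, circles the 3 barcode sets and whiskers 95% counting intervals; FREM2 was highest in the CNR1-high nuclei and NOS1 in the other inhibitory nuclei as a whole.

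The members were not uniform. Clustered on their own, they fell into 7 sub-clusters of 93, 80, 72, 54, 30, 26 and 14 nuclei, each present in all 3 barcode sets. The genes that define the sub-clusters are a description and not a result, and no sub-cluster was given a cell type name. Beyond counting noise, the most variable genes among members were GPC5, KCNIP4, NRXN3, ERBB4, NPSR1 and OPCML. GPC5, a glypican, had 1499 UMIs in 159 members and up to 129 in 1 nucleus. NPSR1, the receptor of neuropeptide S, had 195 UMIs in 31 members.

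The 3 largest sub-clusters, 245 of the 369 members, carried most of the EGFR and FRAS1 transcripts. EGFR stood at 1158, 1003 and 1037 CPM in sub-clusters 1, 2 and 3, against 107 CPM in sub-cluster 4 and 87.4 CPM in sub-cluster 6. FRAS1 stood at 1508, 870.2 and 716 CPM in sub-clusters 1 to 3, against 86.4 and 67.2 CPM in sub-clusters 4 and 6. In sub-clusters 4 and 6 (54 and 26 nuclei), both genes thus stood below their level in other inhibitory nuclei, unlike in the members as a whole. Sub-cluster 1 was led by PTPN14, FRAS1, DYSF, SLCO2A1 and LAMP5, with LAMP5 at 120 CPM against 44.1 CPM in the other members. Sub-cluster 2 was led by the collagens COL5A2 and COL21A1, by NPSR1 and by the cadherins PCDH10 and CDH7. COL5A2 stood at 189 CPM in it, against 8.72 CPM in the other members. Sub-cluster 3 was led by PAPPA2, CBLN4, RNF144B, TMEM132C and EYA4, with the substance P receptor TACR1 at 258 CPM against 51.8 CPM.

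Sub-cluster 4 held the serotonin receptor HTR2C, and without it the members lost that call. HTR2C stood at 1904 CPM in its 54 nuclei, against 70.1 CPM in the other members. In the 3 barcode sets HTR2C was at 511, 352 and 576 CPM in all members, against 142, 131 and 155 CPM in other inhibitory nuclei. Without sub-cluster 4 the 70.1 CPM of the members lay below the 142 CPM of other inhibitory nuclei, the 184 CPM of CNR1-high ADARB2 nuclei and the 81.9 CPM of ADARB2 nuclei without RELN. The other leading genes of sub-cluster 4 were SH3RF2, CALCRL, RSPO2 and NTNG1, a netrin relative anchored in the membrane, at 2223 against 149 CPM. CALCRL stood at 6.89 CPM in members when sub-cluster 4 was left out, against 5.97 CPM in other inhibitory nuclei. CMTM8 and GPC3 also dropped under 2-fold against other inhibitory nuclei without it, at 48.3 against 46.0 CPM and 11.5 against 9.15 CPM. Sub-cluster 4 had a median of 9252 UMIs per nucleus, with 3 presumed doublets among its 54 nuclei.

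Sub-cluster 6, with 26 nuclei, had the highest FREM2 level. FREM2 stood at 491 CPM there and at 218 CPM in sub-cluster 4, but at 15.2 CPM in sub-cluster 1 and at 0 UMIs in sub-cluster 3. Without sub-cluster 6 or without sub-cluster 4, FREM2 no longer differed 2-fold from ADARB2 nuclei without RELN, at 60.6 and 53.4 CPM against 38.1 CPM. Its leading genes were GPC5, COL19A1, PDE1C, COL4A3 and PDE5A, and GPC5 stood at 7313 CPM, against 198 CPM in the other members. Of its 26 nuclei 13 had 4 to 7 CNR1 UMIs, just under the limit of 8. So did 23 of the 54 nuclei of sub-cluster 4 and 11 of the 80 of sub-cluster 2. GPC5, COL19A1 and FREM2 were also lower in members as a whole than in CNR1-high ADARB2 nuclei, with GPC5 at 673 against 2956 CPM and COL19A1 at 65.6 against 327 CPM.

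The 2 other sub-clusters were small. Sub-cluster 5, the one highest in SLC1A3, had 30 nuclei, of which 26 were presumed doublets, with a median of 10102 UMIs. Its leading genes were KIAA1211L, ANKRD33B, SLIT3, NHSL1 and NELL1. The astrocyte markers summed to 2412 CPM there, against 248 to 1116 CPM in the other 6 sub-clusters, and the excitatory markers to 120 CPM, against 9.93 to 34.8 CPM. Sub-cluster 7 had 14 nuclei with a median of 9.5 RELN UMIs, led by RASGRF2, ADAMTSL1, CDH20, ARAP2 and EYA4. NDNF was at 0 UMIs in it, and NXPH1 stood at 3563 CPM.

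**Figure D5:**
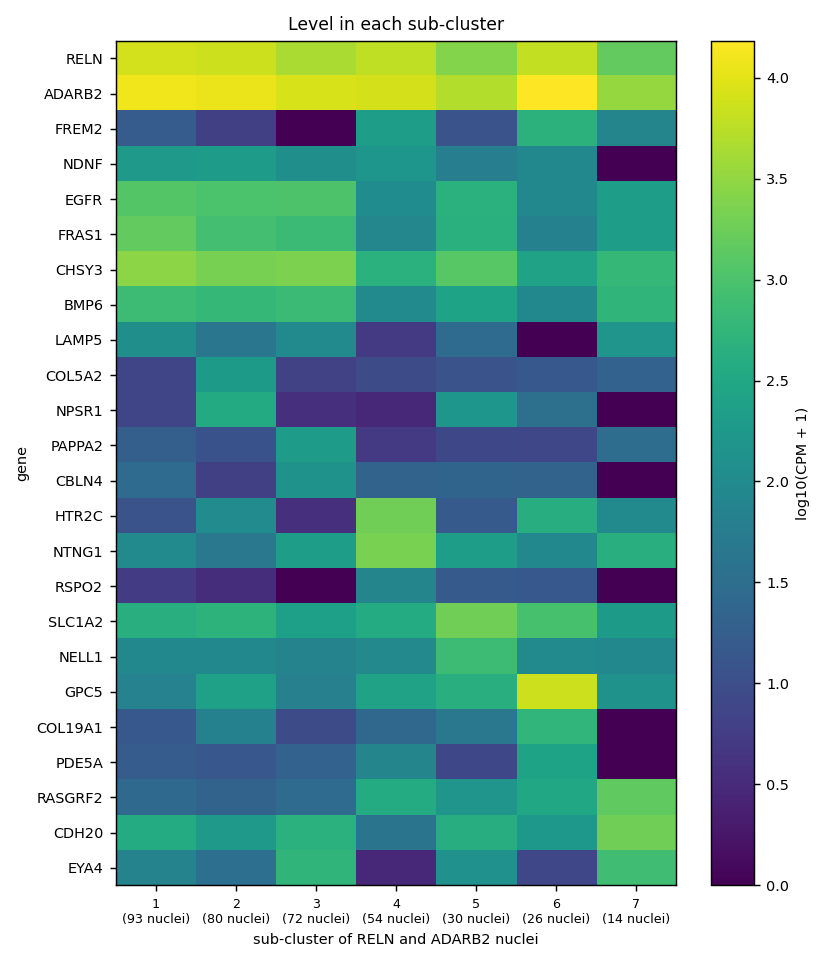
Level of 24 genes (rows) in the 7 sub-clusters of RELN and ADARB2 nuclei (columns, with their number of nuclei), as log10 of CPM + 1. EGFR, FRAS1 and CHSY3 are high in sub-clusters 1 to 3, HTR2C and NTNG1 in sub-cluster 4, SLC1A2 in sub-cluster 5 and GPC5 and FREM2 in sub-cluster 6.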

How the data were processed

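Nuclei of amygdala tissue from 12 labelled samples of 1 group were profiled, while the design text speaks of 3 samples. The deposited file holds raw UMI counts per gene and nucleus (19708 gene rows, 26400 nuclei, 151526883 UMIs), which the authors made, per the submitters' processing notes, with Cell Ranger 3.0.0 and fastp. The notes name GRCh38, while 5142 rows carry macaque Ensembl identifiers, so the build is not settled and no coordinates are given. Libraries were made with a 10x Genomics 3′ kit from about 15000 nuclei per channel, per the labels' protocols, so 3′ ends of nuclear RNA were read. No nucleus had more than 4999 detected genes. Barcode sets may be technical, and their median depths lay between 5009 and 5116 UMIs.

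The members, comparison populations and 31 gene lists were chosen with earlier results of these data known. UMIs were added up over the nuclei of a population and scaled to CPM, with exact Poisson intervals for levels and ratios and Clopper-Pearson intervals for shares (95%). Compared genes had 50 UMIs or more in 1 of the populations and an expected 10 or more in both at the higher CPM, and the genes of the rule were not counted. Higher or lower means at least 2-fold with 1 direction in all 3 barcode sets. A count of 0 was set to a floor of 3. The planned design had no test, since the pool is 1 sample. Genes were named by rank of the ratio (15 highest and 12 lowest, then 6 and 6), by membership in a list, by excess variance (6) and as the leading 5 of each sub-cluster. Other genes at the thresholds were chosen after their values were seen, as was leaving out each sub-cluster in turn.

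Excitatory nuclei (1390) had at least 3 UMIs of SLC17A7 and none of GAD1 or GAD2. Shares were also taken after thinning to 3000 UMIs, which left out 16 members, 70 other inhibitory nuclei, 3 CNR1-high ADARB2 nuclei and 5 excitatory nuclei. No nucleus was filtered out. Doublets stayed in, and the highest Scrublet scores of each barcode set, at 0.8% per 1000 nuclei, were left out as an alternative (1862 nuclei). Members were clustered with the Leiden method (resolution 0.5) on a graph of 15 neighbours over 20 principal components of 2000 variable genes (scanpy 1.11.5, igraph 0.11.9, Python 3.11.15). The comparison was tested on simulated data. Alternatives covered the thresholds of the rule, the level minimum, the fold, scaling, depth, doublets and each barcode set. Results for a few genes are not reported here.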

Additional observations from a re-analysis of the deposited data

How the results depend on the processing

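Of 969 values of genes named by rank, 63 left the main counting interval on the same side, and 1 changed direction: without sub-cluster 4, an alternative chosen after seeing the data, as was leaving out the other sub-clusters, the log2 ratio of HTR2C to ADARB2 nuclei without RELN was -0.22, against 2.52 with it. The share of 11.3% was 12.8% with at least 5 UMIs of GAD1 and GAD2 and 10.2% with the rule applied to counts per 5000 UMIs, and stayed within its interval otherwise. With no level minimum, 312 genes were higher and 732 lower than in other inhibitory nuclei, 434 and 597 against ADARB2 nuclei without RELN, and 664 and 720 against CNR1-high ADARB2 nuclei. At 3-fold the counts were 39 and 142, 42 and 40, and 99 and 106 in the same order. Sub-cluster 5, the one highest in SLC1A3, held 26 presumed doublets among its 30 nuclei. Without sub-cluster 5, 235 genes were lower than in ADARB2 nuclei without RELN, against 142 with it. The cause was not tested. The other counts of higher and lower genes stayed within 1.5 times, also with presumed doublets left out (182 higher and 474 lower against other inhibitory nuclei) and after thinning (152 and 388). Median ratio scaling moved all ratios by at most 0.06 on the log2 scale. Genes with few UMIs in members, such as SYT6 with 1, have a direction but a loose size. No paired analysis was possible because the nuclei are not mapped to samples.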

Other observations

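Some genes of the lists also varied between the sub-clusters of RELN and ADARB2 nuclei. They were chosen after their values were seen. CHRNA7, a nicotinic receptor, stood at 656 CPM in sub-cluster 2 and 498 CPM in sub-cluster 1, and at 69.5 to 197 CPM in the other 5. GRIK1 stood at 860.4 CPM in sub-cluster 4, against 2140 to 5301 CPM in the other 6. KCNQ5, a potassium channel, stood at 387 CPM in sub-cluster 4 and at 3225, 2820 and 3360 CPM in sub-clusters 1 to 3. BCL11B stood at 20.2 CPM in sub-cluster 6, against 206 to 327 CPM in the others, and PROX1 was at 0 UMIs in sub-cluster 6, at 6.17 CPM in sub-cluster 4 (3 UMIs) and at 69.5 to 92.7 CPM in the other 5. The share of members in sub-cluster 4 was 16.9, 8.96 and 19.2% in the 3 barcode sets, and that of sub-cluster 5 was 11.8, 7.46 and 4.04%.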
